A study of Mus musculus with 32 samples.

Results

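Rab GTPases are the largest branch of the Ras superfamily of small GTP-binding proteins, and each one marks particular membranes on which it directs the budding, transport, tethering and fusion of vesicles. A Rab protein carries a prenyl lipid anchor, is switched on by a guanine nucleotide exchange factor (GEF), recruits effector proteins while GTP is bound, is switched off by a GTPase-activating protein (GAP), and is extracted from the membrane by GDP dissociation inhibitor. In neurons the family serves secretory traffic through the Golgi, synaptic vesicle release, receptor recycling and lysosomal delivery, along processes far from the cell body. The Rab genes were taken as all genes of the 3′UTR count table whose symbol was "Rab" followed by a number and at most a letter and a digit, which gave 58 of 44081 genes.

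The RNA came from 16 single hippocampal neurons of C57BL/6 mice, which were taken at embryonic day 18 and cultured for 15 days at the basal state. The severed dendrites and the aspirated soma of each neuron were amplified and sequenced separately, giving 16 dendrite and 16 soma samples paired by cell. Neurons 1 to 4 had 3 rounds of linear RNA amplification and the other 12 had 2 rounds. The cells came from several cultures and the labels do not tie a cell to an animal. The study's authors expected no more than a small part of the severed material to be axon. No treated or otherwise contrasting group exists, so the soma of the same cell is the reference for each dendrite sample.

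The dendrite samples had 646521 to 6954420 reads on 3′UTRs and the somas 925525 to 21169974, so that a single read was worth 0.159 to 1.34 CPM (its worth once all libraries are scaled to the same size) in dendrites and 0.0459 to 0.987 in somas. CPM are reads scaled by the effective library size, so they are shares of a library, and neither copies per compartment nor the total RNA of a compartment was measured. A summed list of 6 pan-neuronal markers stood between 4305 and 19230 CPM in dendrites and between 3542 and 17130 CPM in somas. The label says only hippocampal neuron. Gad1 and Gad2, which encode the enzymes of GABA synthesis, had reads in 16 of 16 samples of each compartment, and the median Gad1 level was 1722 CPM in dendrites and 6990 CPM in somas. The summed interneuron list (6 genes) had a median of 4126 CPM in dendrites (1737 to 11660) and 9874 CPM in somas (1509 to 20070). In that list, which includes Gad1 and Gad2, Sst had reads in 2 dendrites and 3 somas. The summed pyramidal list (5 genes) had a median of 262.5 CPM in dendrites (6.67 to 3259) and 107.7 CPM in somas (27.6 to 2025). The paper reports high levels of neuronal markers in all samples, pyramidal markers above all. A summed astrocyte list of 6 genes had a median of 159.1 CPM in dendrites (0 to 845.6) and 57.5 CPM in somas (0 to 538.4). Within it Aldoc had medians of 47.2 and 25.1 CPM and Slc1a3 of 11.8 and 2.32 CPM, Aqp4 had reads in 11 dendrites and 7 somas and Gja1 in 9 and 3, and Gfap and Aldh1l1 had a median of 0 in each compartment. In the microglial list, where 5 of 6 genes had a median of 0 in dendrites and 6 of 6 in somas, the summed level had medians of 5.55 CPM in dendrites and 0.298 CPM in somas, the oligodendrocyte list 8.30 and 3.02 CPM, and the endothelial list 8.28 and 0.621 CPM. The part of these markers in the Rab levels was not tested. The dendrites of neurons 15 and 16 stood apart, with 1570 and 2485 genes at 10 or more reads against 3794 to 9871 in the other 14, so the compartment test, the number of Rab genes detected and the Rab6a to Rab6b ratio are also given without them.

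Rab transcripts were present in every dendrite sample, and a small set of genes was found in nearly all of them. Of the 45 Rab genes with reads in at least 15 of the 32 samples, 14 had reads in at least 15 of 16 dendrites, beside 16.4% of the 11359 genes filtered in the same way. Reads were present in 16 of 16 dendrites for 8 of them, beside 871 of those 11359 genes. These 8 were Rab1, Rab2a, Rab6a and Rab6b of the endoplasmic reticulum and Golgi routes, Rab3c of synaptic vesicles, Rab5b of early endosomes, Rab11b of recycling endosomes, and Rab12, which acts in transport to lysosomes. The same 8 genes had reads in 16 of 16 somas. At the other end, Rab17, Rab19, Rab20 and Rab44 had no read in any sample. Another 9 Rab genes (Rab3d, Rab13, Rab25, Rab26, Rab32, Rab37, Rab38, Rab39 and Rab40b) had reads in too few samples for the compartment test, which required at least 1 read in 16 of 32 samples.

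**Figure D1:**
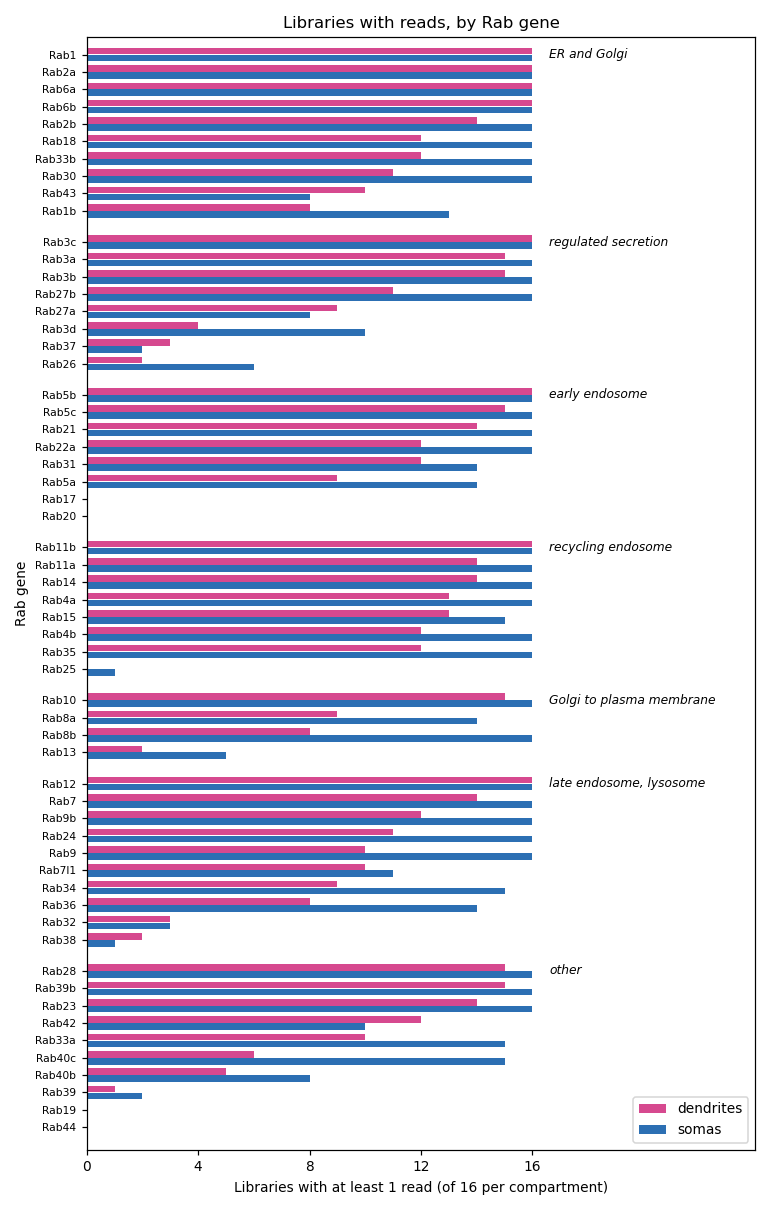
Number of dendrite samples (pink) and soma samples (blue), of 16 each, with at least 1 read for each of the 58 Rab genes, grouped by the membrane route on which the protein is known to act. Of these genes, 8 reached 16 of 16 dendrites, and Rab17, Rab19, Rab20 and Rab44 had no reads.

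With at least 10 reads as the criterion for detection, a dendrite sample held 27.5 ± 8.24 Rab genes (SD, n = 16; 8 to 41) and a soma 40.2 ± 3.62 (33 to 45). The soma held more Rab genes than its own dendrites in 15 of 16 neurons, by 12.7 ± 8.20 genes on average, and in neuron 5 each compartment held 41. The difference was 14.1 ± 9.01 among the 12 cells amplified in 2 rounds and 8.5 ± 2.65 among the 4 amplified in 3. When the deeper library of each pair was thinned to the read number of the other, the difference was 10.1 ± 7.80 genes, and without neurons 15 and 16 it was 10.4. Most detected dendritic Rab genes were also detected in the soma of the same cell: 25.0 ± 7.30 were detected in both compartments and 2.5 ± 1.93 in the dendrites alone. The paper reports that dendritic genes in general were for the most part also found in the soma of their cell. Rab genes made up 0.486% ± 0.0728 of the genes detected in dendrites and 0.445% ± 0.0604 of those detected in somas.

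**Figure D2:**
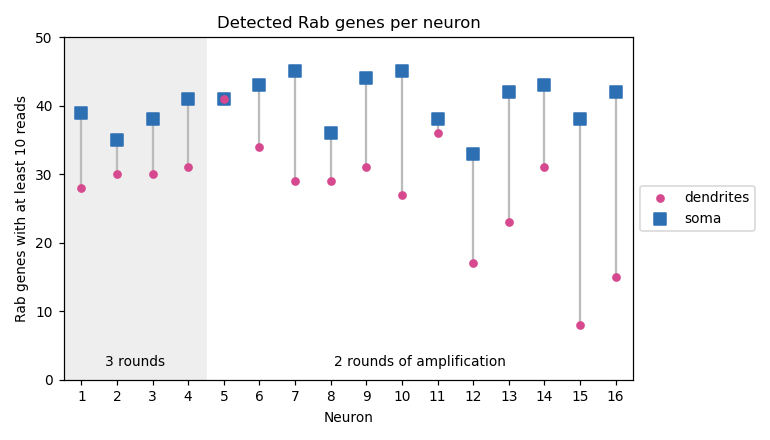
Rab genes with at least 10 reads (vertical axis) in the dendrites (pink circles) and soma (blue squares) of each neuron, with a grey line joining the pair and a grey field behind the 4 neurons with 3 rounds of amplification. The soma lies above its dendrites in 15 neurons, and the lowest dendrite value is the 8 genes of neuron 15.

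The Rab family took 0.842% ± 0.251 of the 3′UTR reads in dendrites and 1.14% ± 0.262 in somas, and the soma share was higher in 13 of 16 neurons. Among the 12 neurons with 2 rounds the soma share was higher in 11, and among the 4 with 3 rounds it was higher in 2. Most of these reads came from Rab3c, a synaptic vesicle Rab of the Rab3 group, and from Rab6a and Rab6b, which act in Golgi traffic. Together the 3 genes gave 61.8% ± 11.3 of all Rab reads in dendrites and 52.9% ± 7.94 in somas. The order of the mean shares was not the same in each compartment: Rab3c led in dendrites (32.4% ± 15.7 of Rab reads, with Rab6b at 14.8% ± 7.46 and Rab6a at 14.6% ± 6.75), and in somas Rab6a (22.9% ± 8.98) and Rab3c (20.8% ± 4.63) lay within their spread of each other. In somas Rab6b gave 9.20% ± 4.11. These shares are of reads, and they are not corrected for the length of the 3′UTR.

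The comparison of the compartments asked which Rab transcripts were relatively higher in the dendrites or in the soma of the same cell. It found 3 Rab genes higher in somas, Rab18, Rab30 and Rab40c, and none higher in dendrites, among 45 tested (edgeR quasi-likelihood test with neuron as a block, Benjamini-Hochberg adjusted p at most 0.05 over 10880 genes). Over all genes 5.71% were called higher in somas and 0.827% higher in dendrites. At an unadjusted p under 0.05, 12 Rab genes were lower in dendrites and 0 were higher, beside 26.7% of all genes that were lower at this level. The median log2 fold change of dendrites over somas was -1.51 for the tested Rab genes and -1.49 for all genes, so the family as a whole sat 0.02 below the middle of the transcriptome. Rab genes lay above that median gene in 22 cases and below it in 23. A value above 0 was fitted for 8 of the 45, beside 21.2% of all genes.

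How many Rab genes were called depended on the tool and on the scaling. DESeq2 with the same paired design called 23 Rab genes higher in somas and 1 (Rab42) higher in dendrites, where it called 46.2% and 4.26% of all genes. The dendrites were also rescaled so that the median gene did not differ between compartments, which moved its log2 fold change from -1.49 to -0.001. With the dendrites rescaled, 0 Rab genes were called higher in somas and 2, Rab3c and Rab6b, were called higher in dendrites. Under that scaling 0.827% of all genes were called higher in somas and 5.42% higher in dendrites. Without the neuron block the edgeR fit called 0 Rab genes, and without neurons 15 and 16 it also called 0.

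**Figure D3:**
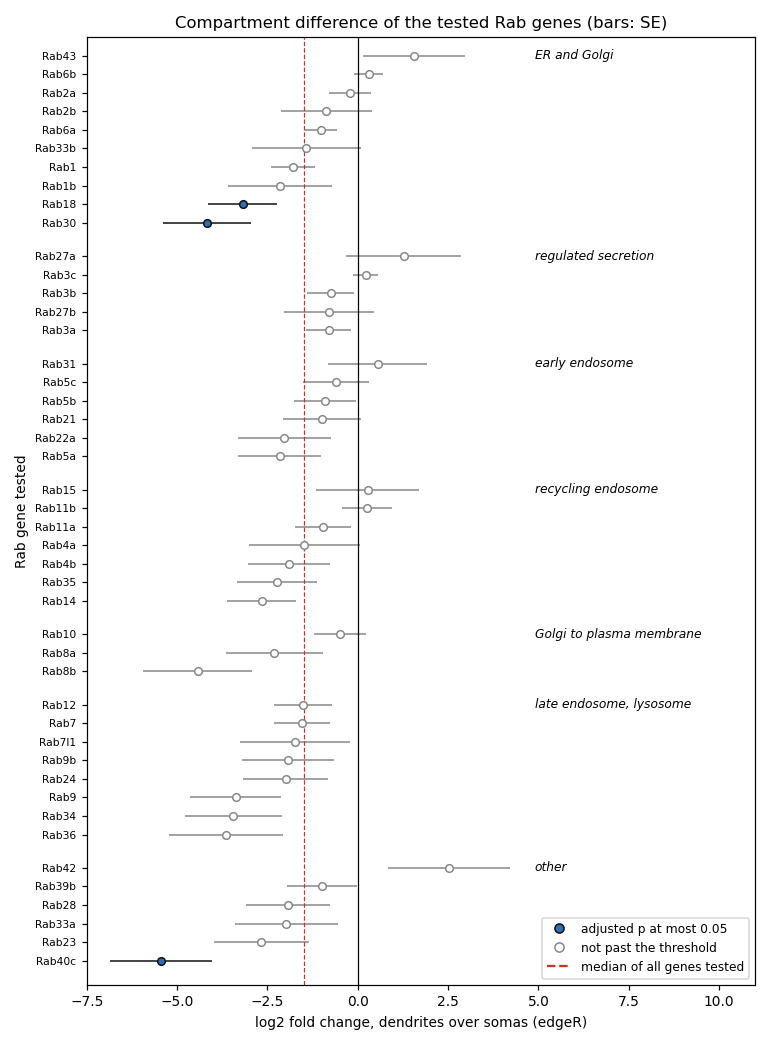
Log2 fold change of dendrites over somas (horizontal axis, edgeR, bars are SE) for the 45 Rab genes tested, grouped by membrane route. Filled points are Rab18, Rab30 and Rab40c, the red dashed line is the median of all 10880 genes at -1.49, and points to the right of the black line at 0 were fitted higher in dendrites.

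Rab18 and Rab30 act in endoplasmic reticulum and Golgi traffic. All 10 members of that group were tested, and edgeR called 2 higher in somas beside 5.71% of all genes. DESeq2 also called Rab1 and Rab6a, beside 46.2% of all genes. In edgeR 4 members were lower in dendrites at an unadjusted p under 0.05 beside 26.7% of all genes. The median log2 fold change of the group was -1.22. Rab18 (GRCm38 chromosome 18, 6733905 to 6794429) encodes a protein of the endoplasmic reticulum and lipid droplets. Its levels ran from 0 to 899.8 CPM in dendrites with a median of 100.4, and from 115.2 to 1292 CPM in somas with a median of 359.6. All 16 somas held Rab18 reads and 12 of 16 dendrites did, and the soma was higher in 15 of 16 neurons although the ranges overlapped. The log2 fold change was -3.19 ± 0.957 (SE; edgeR adjusted p = 0.0366). It was -4.80 in the neurons with 2 rounds and -0.81 in those with 3 rounds, and this difference did not pass the edgeR interaction test (unadjusted p = 0.0582, adjusted p = 1.0).

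Rab30, a Golgi Rab (chromosome 7, 92741603 to 92844535), had dendrite levels from 0 to 290.9 CPM (median 1.97) and soma levels from 6.34 to 202.8 CPM (median 52.2). Reads were present in 11 of 16 dendrites and 16 of 16 somas, and the soma was higher in 13 of 16 neurons. The dendrites were higher in neurons 2, 6 and 11, and the highest single value of the gene, 290.9 CPM, was the dendrite sample of neuron 11. The log2 fold change was -4.17 ± 1.23 (edgeR adjusted p = 0.0342). Of the 16 fits that each left out 1 neuron, 6 kept the call of Rab18 and 5 that of Rab30, while the log2 fold change stayed between -3.55 and -2.55 for Rab18 and between -4.54 and -3.62 for Rab30. Rab18 was lost without neuron 1, 3, 6, 7, 9, 12, 13, 14, 15 or 16, with adjusted p from 0.0284 to 0.0960 over the 16 fits. Rab30 was lost without neuron 1, 3, 4, 7, 8, 10, 12, 13, 14, 15 or 16, with adjusted p from 0.0219 to 0.0823. Rab18 was also lost with at least 10 reads in 16 samples (edgeR adjusted p = 0.0853) and at equal read numbers (0.0621). There Rab30 was lost too (0.0547 and 0.0628), and with exon reads (0.328), no filter (0.0827) and 2 rounds only (0.0765). Each was lost with rescaled dendrites, without the neuron block, with 3 rounds only and without neurons 15 and 16. DESeq2, and its size factors in edgeR, kept each call.

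Rab1, listed under its older symbol for Rab1a, controls transport from the endoplasmic reticulum to the Golgi and was the one Rab gene that was higher in the soma of 16 of 16 neurons. It ranged from 0.662 to 626 CPM in dendrites (median 196.9) and from 322.3 to 990.5 CPM in somas (median 544.2). The log2 fold change was -1.80 ± 0.602, and the test did not reach the threshold (edgeR adjusted p = 0.0570). Its close relative Rab1b had few reads, which were found in 8 of 16 dendrites and 13 of 16 somas. Rab2a, which acts in retrograde and secretory traffic at the Golgi, was nearly level: medians were 308.3 CPM in dendrites and 302.8 CPM in somas, and the log2 fold change was -0.21 ± 0.584. Rab43 was fitted higher in dendrites (log2 fold change 1.57 ± 1.41), but 3 of 16 dendrites and 4 of 16 somas held 10 reads or more of it, and it was not called (edgeR adjusted p = 0.435). In the neurons with 3 rounds Rab43 was fitted at -0.305.

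The Golgi pair Rab6a and Rab6b was fitted on opposite sides of 0, although Rab6a was also above 0 with the dendrites rescaled (0.52) and in the neurons with 3 rounds (0.44). Rab6a (chromosome 7, 100607410 to 100641268), the ubiquitous form, ran from 5.30 to 3827 CPM in dendrites (median 1197) and from 663.3 to 6647 CPM in somas (median 2751), and was higher in the soma of 14 of 16 neurons. Its log2 fold change was -1.01 ± 0.440 and was not called (edgeR adjusted p = 0.120). Rab6b (chromosome 9, 103111787 to 103185276), the form enriched in brain, ran from 213.8 to 2202 CPM in dendrites (median 1333) and from 567.2 to 1475 CPM in somas (median 937.7), and was higher in the dendrites of 10 of 16 neurons. Its log2 fold change was 0.31 ± 0.403 (edgeR adjusted p = 0.599).

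A ratio of 2 genes within a library does not depend on how libraries are scaled, so the share of related Rab genes was compared directly. Rab6a made up less of the Rab6 reads in the dendrites than in the soma of the same cell. The median share of Rab6a among Rab6a and Rab6b reads was 51.3% in dendrites (2.42 to 79.2) and 72.4% in somas (31.1 to 84.1). The log2 ratio of Rab6a to Rab6b was -0.29 ± 1.62 (SD, n = 16) in dendrites and 1.29 ± 1.01 in somas, a difference of -1.58 ± 1.57 that was negative in 15 of 16 neurons. The difference passed a two-sided exact sign-flip permutation test (p = 0.000244, adjusted p = 0.00342 over 14 pairs). Neuron 2 was the exception, with 61.2% Rab6a in the dendrites and 41.6% in the soma. The most extreme cell was neuron 15, whose dendrites had 8 Rab6a reads and 323 Rab6b reads, and the difference without that neuron was -1.24 ± 0.841 (exact permutation p = 0.000488). Without neurons 15 and 16 it was -1.22 ± 0.869 (n = 14, exact permutation p = 0.000977).

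In the 12 neurons with 2 rounds of amplification the ratio was lower in dendrites in 12 of 12 (-1.95 ± 1.54, exact permutation p = 0.000488). In the 4 neurons with 3 rounds it was lower in 3 of 4 (-0.46 ± 1.16, exact permutation p = 0.5, where 4 pairs cannot give less than 0.125). The difference between the rounds, 1.49, did not pass an exact permutation test over all 1820 ways to choose the 4 neurons (two-sided p = 0.124). The counts behind these ratios were of uniquely mapped reads on 3′UTRs, and the ratio from reads on whole exons gave a difference of -1.58 ± 1.51 as well.

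**Figure D4:**
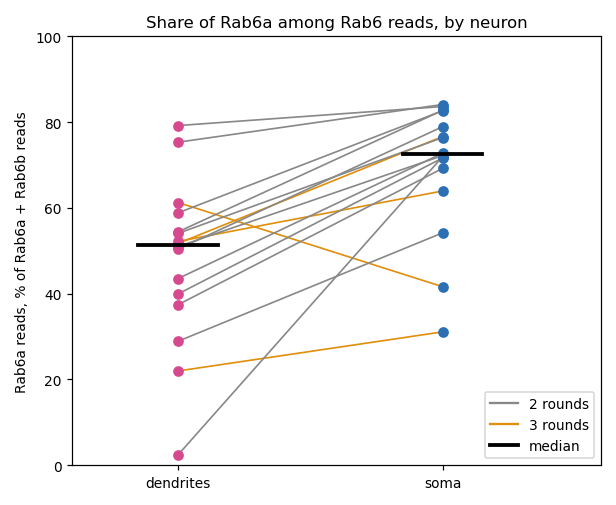
Rab6a reads as a percentage of Rab6a and Rab6b reads together (vertical axis) in the dendrites and soma of each neuron, with a line joining the pair (grey for 2 rounds of amplification, orange for 3) and a black bar at the median. The median is 51.3% in dendrites and 72.4% in somas, and the line falls only for neuron 2.

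The other 13 pairs did not pass after adjustment. Relative to Rab3c, Rab3a and Rab3b were each lower in the dendrites of 12 of 16 neurons, with log2 ratio differences of -1.79 ± 3.66 and -1.51 ± 3.26 (exact sign-flip permutation adjusted p = 0.103 and 0.127). The ratio of Rab11a to Rab11b differed by -1.54 ± 2.46 over 15 neurons (exact permutation adjusted p = 0.103). For Rab9 and Rab9b the difference was -3.23 ± 4.86 over 11 neurons (exact permutation adjusted p = 0.142). In the other direction, the ratio of Rab27a to Rab27b differed by 3.27 ± 5.73 over 11 neurons (exact permutation adjusted p = 0.2005). That ratio was higher in the dendrites of 9 of them. The SD exceeded the mean difference in each of these pairs. The Rab3 pairs and the Rab5 pairs share genes and are not independent of each other.

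The Rab genes of synaptic vesicles and regulated secretion had small fitted differences between the compartments. Of 8 members 5 were tested and none was called by edgeR or DESeq2, beside 5.71% and 46.2% of all genes called higher in somas. With the dendrites rescaled, edgeR called Rab3c higher in dendrites. The median log2 fold change was -0.75, and 5 of 5 lay above the median gene (range -0.81 to 1.27). With no filter on low counts 2 of 5 lay above it, without the neuron block 3 of 5, and in the neurons with 2 rounds 4 of 5. Rab3c (chromosome 13, 110054187 to 110280996) was the Rab gene with the most reads in dendrites by the median, with 635.9 to 8049 CPM and a median of 2812, against 791.6 to 3967 CPM and a median of 2410 in somas. The dendrites were higher in 10 of 16 neurons and the ranges overlapped, with a log2 fold change of 0.22 ± 0.347 (edgeR adjusted p = 0.661) that turned to -0.05 with DESeq2, with its size factors in edgeR and in the neurons with 2 rounds. Rab3a, the main synaptic vesicle Rab of the brain, had medians of 404.3 CPM in dendrites and 628.6 CPM in somas, and Rab3b had 200.7 and 428.9 CPM. Neither was called, with log2 fold changes of -0.81 ± 0.626 and -0.75 ± 0.643. Rab27a, which acts in the docking of secretory granules, was fitted at 1.27 ± 1.597, but 3 of 16 dendrites and 4 of 16 somas reached 10 reads.

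**Figure D5:**
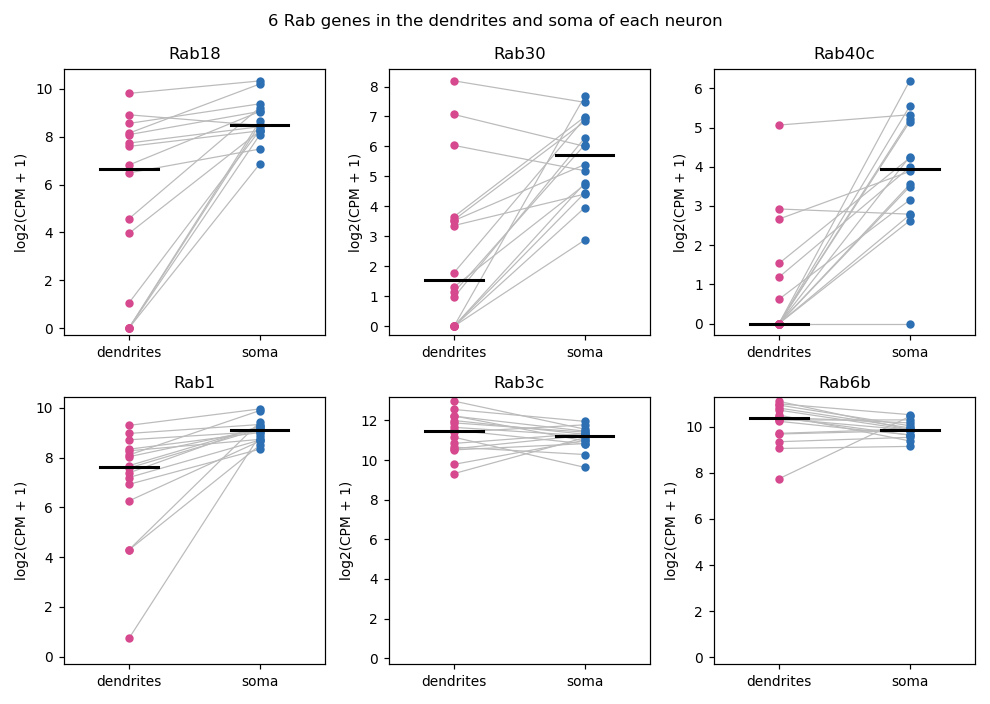
Levels of Rab18, Rab30, Rab40c, Rab1, Rab3c and Rab6b in log2(CPM + 1), with a grey line joining the dendrites (pink) and soma (blue) of each neuron and a black bar at the median of 16 samples. The soma is higher in 15, 13, 14 and 16 neurons for Rab18, Rab30, Rab40c and Rab1, and the dendrites are higher in 10 neurons for Rab3c and for Rab6b.

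Early endosome Rab genes had a median log2 fold change of -0.95. Of 8 members 6 were tested and edgeR called none, beside 5.71% of all genes called higher in somas. DESeq2 called Rab5a, Rab5b and Rab22a higher in somas, beside 46.2% of all genes. Rab5b and Rab5c, which drive fusion of early endosomes, had medians of 35.2 and 34.1 CPM in dendrites and 53.9 and 47.3 CPM in somas. Rab5a had fewer reads, with a median of 0.676 CPM in dendrites and 3.27 CPM in somas. Rab21, which takes part in integrin endocytosis, had medians of 34.4 CPM in dendrites and 80.1 CPM in somas (log2 fold change -0.995 ± 1.077). The fold change was -3.83 with reads on exons (edgeR adjusted p = 0.0678), 0.54 with rescaled dendrites and 0.603 in the neurons with 3 rounds. Rab31, a Rab of Golgi to endosome transport that is also used in glia, was fitted at 0.55 ± 1.36 and was higher in the dendrites of 8 neurons and in the soma of 6. In the neurons with 3 rounds Rab31 was fitted at -0.648.

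Among the recycling endosome Rab genes 7 of 8 members were tested and edgeR called none, beside 5.71% of all genes called higher in somas. In that fit 2 were lower in dendrites at an unadjusted p under 0.05, near the 26.7% of all genes. DESeq2 called Rab4b, Rab14 and Rab35 higher in somas, beside 46.2% of all genes. With DESeq2 size factors edgeR called Rab14. Rab11b, which returns cargo from recycling endosomes to the surface, had a median of 180.6 CPM in dendrites (2.65 to 428.4) and 121.3 CPM in somas (71.4 to 262). It was higher in the dendrites of 10 of 16 neurons (log2 fold change 0.27 ± 0.693, edgeR adjusted p = 0.800). The fold change was -0.002 with DESeq2 and -0.003 with its size factors in edgeR. Rab11a, of the same function, had medians of 200.1 and 266.1 CPM and was higher in the soma of 10 (-0.97 ± 0.777). Rab14, which sorts cargo between endosomes and the Golgi, was higher in the soma of 15 of 16 neurons, with medians of 23.9 CPM in dendrites and 98.1 CPM in somas (-2.66 ± 0.953, edgeR adjusted p = 0.0709). Rab15 was fitted at 0.27 ± 1.43 and, in the neurons with 2 rounds, at -1.13, with dendrites higher in 9 neurons. Rab4b, of fast recycling, was higher in the soma of 13 (-1.89 ± 1.14).

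Of the Rab genes of Golgi to plasma membrane transport, 3 of 4 were tested. The edgeR fit called none, beside 5.71% of all genes called higher in somas. DESeq2 called Rab8a and Rab8b higher in somas, beside 46.2% of all genes. With DESeq2 size factors edgeR called Rab8b. Rab10, which carries vesicles to the growing membrane, had medians of 350.2 CPM in dendrites and 380.5 CPM in somas. Rab8b, which directs membrane to the surface and to cilia, had reads in 8 of 16 dendrites and in 16 of 16 somas, with medians of 0.268 and 24.9 CPM (-4.43 ± 1.51, edgeR adjusted p = 0.0603). Rab8b passed the threshold in 4 of the 16 fits that left out a neuron, those without neuron 2, 5, 6 or 11.

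In the late endosome and lysosome group the 8 tested members (of 10) all had fitted values below 0, and 0 of 8 lay above the median gene. None was called by edgeR, beside 5.71% of all genes called higher in somas. In that fit 3 were lower in dendrites at an unadjusted p under 0.05 beside 26.7% of all genes. DESeq2 called Rab7, Rab9, Rab9b, Rab12, Rab24, Rab34 and Rab36 higher in somas, beside 46.2% of all genes. The median log2 fold change in edgeR was -1.96, within a range of -3.64 to -1.51. The nearest members lay close to the median gene, and under the other settings, neurons left out in turn included, 0 to 3 of the group lay above it. With the dendrites rescaled, and also without the neuron block, 2 of the 8 were above 0, and 1 was in the neurons with 3 rounds. Rab7, the central Rab of late endosomes, had medians of 79.9 CPM in dendrites and 209.8 CPM in somas and was higher in the soma of 13 of 16 neurons (-1.53 ± 0.777). Rab9, which returns receptors from late endosomes to the Golgi, was higher in the soma of 15 of 16, with medians of 4.00 CPM in dendrites and 103.3 CPM in somas (-3.38 ± 1.26, edgeR adjusted p = 0.0783). Rab34, which positions lysosomes, had medians of 0.765 and 10.8 CPM (-3.45 ± 1.35, edgeR adjusted p = 0.0901).

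The remaining 10 Rab genes had few reads for the most part. Of 6 tested, edgeR called 1 higher in somas, beside 5.71% of all genes. DESeq2 called Rab23, Rab28, Rab33a and Rab40c higher in somas and Rab42 higher in dendrites, beside 46.2% and 4.26% of all genes. Rab40c (chromosome 17, 25882114 to 25919727), whose protein has a SOCS box that links it to ubiquitin ligases, had the lowest fold change of the family. Its dendrite levels were 0 to 32.5 CPM with a median of 0, and its soma levels 0 to 72.4 CPM with a median of 14.3. Reads were found in 6 of 16 dendrites and 15 of 16 somas, and the soma was higher in 14 neurons, the dendrites in neuron 2, and neither compartment in neuron 15. The log2 fold change was -5.45 ± 1.42 (edgeR adjusted p = 0.0199), and 15 of the 16 fits that left out a neuron kept the call, the exception being that without neuron 16 (edgeR adjusted p = 0.0537). The call was also lost with reads on exons (edgeR adjusted p = 0.0711), with no filter (0.0911), without the neuron block (0.180), with rescaled dendrites (0.0654), in the neurons with 3 rounds (0.868) and without neurons 15 and 16 (0.0564), and the gene was not tested under the stricter filter. In the other direction Rab42 was fitted at 2.52 ± 1.69 (edgeR adjusted p = 0.291), with reads in 12 of 16 dendrites and 10 of 16 somas. Its median was 1.76 CPM in dendrites, above the worth of 1 read, and 0.115 CPM in somas, within the worth of 1 read. Rab42 had 10 reads or more in 6 of 16 dendrites and 3 of 16 somas. The dendrites were higher in 8 neurons and the soma in 7.

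No Rab gene was called as differing in its compartment effect between 2 and 3 rounds of amplification. The edgeR interaction test called 0 of 10880 genes and 0 of the 45 Rab genes, with 0 Rab genes at an unadjusted p under 0.05 beside 2.65% of all genes. DESeq2 called 49 genes and 0 Rab genes, with 5 Rab genes at an unadjusted p under 0.05 beside 10.4% of all genes.

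Many Rab genes have more than 1 3′ end, and the share of reads on each of the 2 most used ends was compared between compartments. The files number the ends of a gene but give no positions for them, so which end is proximal is not stated. Of 3508 genes with enough reads in at least 5 neurons, 8.44% had a two-sided exact Wilcoxon signed-rank p under 0.1, as did 4 of 20 Rab genes. No gene passed after adjustment. The 4 were Rab21, Rab3a, Rab4b and Rab11a; Rab11a was no longer among them with a minimum of 5 reads or in the neurons with 2 rounds, Rab4b was not with 20 reads, and Rab5b joined them in the neurons with 2 rounds. For Rab21 the end numbered 3 held 30.2% ± 40.8 of the reads in dendrites and 74.7% ± 23.1 in somas (SD, n = 9), and the share was lower in the dendrites of 7 of 9 neurons (exact p = 0.0195, adjusted p = 0.906). For Rab11a the end numbered 2 held 67.9% ± 26.2 in dendrites and 53.6% ± 17.5 in somas (n = 13, higher in dendrites in 9, exact p = 0.0942). The second ends of Rab3a and Rab4b were minor in each compartment. They held 0.0483% ± 0.0796 in dendrites and 0.367% ± 0.703 in somas for Rab3a (n = 14, exact p = 0.0137). For Rab4b they held 1.25% ± 3.95 and 4.53% ± 3.42 (n = 10, exact p = 0.0469). Of the 3 genes with the most Rab reads, Rab6a had nearly the same use of its ends in each compartment (88.2% ± 12.2 and 90.8% ± 10.4 on the end numbered 2, n = 15), and Rab3c and Rab6b each have a single end in the table.

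The genes that load, switch and read Rab proteins were compared in the same fit. Of 142 listed regulators and effectors 111 were tested, 9 were higher in somas and 0 in dendrites, 41 were lower in dendrites at an unadjusted p under 0.05. Over all genes 5.71% were called higher in somas and 26.7% were lower at the unadjusted level. The median log2 fold change was -1.95 for the list and -1.49 for all genes. With neurons left out in turn 1 to 13 of them were called, and without neurons 15 and 16 together 0 were.

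In the core cycle, 1 of 8 genes was called higher in somas, beside 5.71% of all genes. Rabggta, the alpha subunit of the enzyme that prenylates Rab proteins, had medians of 0.796 CPM in dendrites and 49.5 CPM in somas (log2 fold change -5.37 ± 1.55, edgeR adjusted p = 0.0319). Chm, the Rab escort protein that presents Rab proteins to that enzyme, was fitted at -3.59 ± 1.59 and was not called (edgeR adjusted p = 0.126). Gdi2, a GDP dissociation inhibitor, was well detected in dendrites, with a median of 230.8 CPM against 387.9 CPM in somas, and was not called (-1.32 ± 0.721, edgeR adjusted p = 0.202).

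Of 32 GEF genes tested, 2 were called higher in somas, near the 5.71% of all genes. They were Rabgef1, a GEF for Rab5 (-5.04 ± 1.47, edgeR adjusted p = 0.0332), and Mon1a, part of the GEF for Rab7 (-5.31 ± 1.58, edgeR adjusted p = 0.0359). Dennd5a, a DENN-domain GEF, was higher in the dendrites of 12 of 16 neurons, with medians of 128 CPM in dendrites and 77.2 CPM in somas, and was not called (0.68 ± 0.840, edgeR adjusted p = 0.575). Rgp1, part of the Rab6 GEF, was fitted at 1.32 ± 1.77. Of 32 GAP genes tested, 2 were likewise called higher in somas (5.71% of all genes), Tbc1d23 (-6.54 ± 1.72, edgeR adjusted p = 0.0203) and Tbc1d30 (-4.45 ± 1.35, edgeR adjusted p = 0.0382). Each encodes a TBC-domain protein, although the TBC domain of Tbc1d23 is thought to lack GAP activity. Tbc1d1 and Tbc1d4, GAPs of insulin-regulated vesicle traffic, were fitted at 1.26 ± 1.35 and 0.81 ± 1.37 and were not called.

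Among 39 effector genes tested, 4 were called higher in somas beside 5.71% of all genes. Rufy2, an effector that contains a RUN domain, was higher in the soma of 16 of 16 neurons, with 0 to 84.6 CPM in dendrites (median 19.2) and 51.3 to 279.1 CPM in somas (median 175), a log2 fold change of -3.997 ± 1.063 (edgeR adjusted p = 0.0215). Its relative Rufy1 was fitted at -5.06 ± 1.47 (edgeR adjusted p = 0.0336). Optn, the autophagy receptor that binds Rab8, had the lowest p of the 4 (-5.66 ± 1.39, edgeR adjusted p = 0.0159), and Rilpl1, which binds Rab proteins phosphorylated by LRRK2, was at -4.38 ± 1.37 (edgeR adjusted p = 0.0439). In the other direction the Rab27 effector Exph5 was higher in the dendrites of 13 of 16 neurons (3.60 ± 1.19) but did not pass (edgeR adjusted p = 0.0538). Its levels were low, with medians of 1.29 CPM in dendrites and 0.160 CPM in somas. Sytl5, another Rab27 effector, was fitted at 0.84 ± 1.14.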

How the data were processed

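Per the labels and the methods of the study, the authors amplified polyadenylated RNA linearly in 2 or 3 rounds, made strand-specific libraries, aligned them with STAR (version 2.4.0 per the processing notes) against mm10 after trimming, and counted uniquely mapped reads with VERSE. The deposited counts are raw read counts on the joined 3′UTRs of each gene, on windows of 500 nt before individual 3′ ends, and on exons. Linear amplification concentrates reads at 3′ ends, and the reads carry no molecular identifiers, so a rare gene without reads in a sample may have been present in it.

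The 3′UTR counts of 10880 genes with at least 1 read in 16 of 32 samples were tested in edgeR 4.0.16 (R 4.3.3; TMM, robust quasi-likelihood test, neuron as a block, Benjamini-Hochberg). DESeq2 1.42.0 was an alternative. CPM used TMM-adjusted library sizes. SE was the absolute log2 fold change over the square root of F. Ratios used a pseudocount of 0.5, at least 10 reads on both genes together in each compartment and at least 8 neurons, which gave 14 of 15 pairs. Isoform shares needed 10 reads on both ends together in each compartment of at least 5 neurons. Scripts were tested on simulated data. Positions are of GENCODE M21 (GRCm38), where all 58 symbols matched, Rab1 as Rab1a and Rab7l1 as Rab29.

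Pairs came from the cell number label. Deviations of the compartments of a neuron correlated at 0.0833 ± 0.0763 (n = 16) and of different neurons at -0.00506 ± 0.0534 (n = 240). No 2 libraries were identical. P-values measure spread between single cells, whose animals were not labelled. Mitochondrial genes took 15.3% ± 9.80 of dendrite and 2.02% ± 2.13 of soma reads.

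The Rab genes, their role groups and the regulator lists were chosen with earlier results of these data known. Named were genes called, the 8 with the smallest p in each direction, the 6 with reads in the most dendrites, isoform shifts at p under 0.1, pairs past the threshold, and of each regulator list the genes called and the 2 with the smallest p in each direction. Others named were chosen after their values were seen. The values of 1 listed regulator gene are not reported here.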

Additional observations from a re-analysis of the deposited data

How the results depend on the processing

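The median log2 fold change of the tested Rab genes kept its sign in every setting run except the rescaling of the dendrites to the median gene, where it was 0.027. With each neuron left out in turn it ranged from -1.71 to -1.03. Outside the rescaling the median of all genes was also below 0 in every setting (-1.74 to -0.173). The Rab median minus that of all genes was -1.24 with no filter, -0.36 without the neuron block and -0.22 to 0.232 elsewhere. The count of Rab genes called higher in somas was 23 with DESeq2, 6 with DESeq2 size factors in edgeR, 1 each with no filter on low counts, reads on exons and equal read numbers, and 0 each with at least 10 reads in 16 samples, with rescaled dendrites, with 3 rounds only, and without neurons 15 and 16 (chosen after seeing the data). Leaving out each neuron gave 0 to 4. Over all genes the count higher in somas was 5029 of 10880 with DESeq2 and 1008 with its size factors in edgeR. It was 143 of 31102 with no filter, 257 of 9804 with exon reads and 280 of 10095 at equal read numbers. It was 181 of 7109 with the stricter filter, 90 with rescaled dendrites, 1 with 3 rounds only and 101 without neurons 15 and 16. With single neurons left out it was 130 to 990. Without the replicate block that pairs the compartments of a neuron, 0 Rab genes and 2 regulator and effector genes were called. For Rab genes higher in dendrites the count was 1 with DESeq2 and 2 with rescaled dendrites, and 0 whichever single neuron was left out. Regulator and effector genes called numbered 71 with DESeq2, 2 each with rescaled dendrites, with no filter and with exon reads, 3 each with the stricter filter and with 2 rounds only, 5 at equal read numbers, 0 with 3 rounds only and 0 without neurons 15 and 16, and 1 to 13 with single neurons left out. The Rab6a to Rab6b difference was -1.76 to -1.24 with single neurons left out and -0.46 with 3 rounds only (exact permutation p = 0.5). The causes of these changes were not tested. Rab18, Rab30 and Rab40c kept their sign in all of their 80 values under other settings and kept the call in 37 of them (11 of 27, 7 of 27 and 19 of 26). Of 507 values of the other named Rab genes, which were not called, 17 passed the threshold and 27 changed sign without passing it. Rab genes under 10 reads in most dendrites were near the limit of detection.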
